A study of Caenorhabditis elegans with 4 samples.

Results

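The transthyretin-related genes of Caenorhabditis elegans are the genes whose symbol is ttr- followed by a number. They were found by matching each probe's sequence name to its current gene symbol. The RefSeq gene table of assembly WBcel235 holds 59 of them, one of which, ttr-4, is listed as a pseudogene, and the array carried probes for all 59. Of these, 50 gave a signal that passed the filter on dim probes and were tested among 13685 genes, while the remaining 9 did not pass it. To pass, a probe had to be well above background in each of the 3 replicates in one genotype or the other.

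Every array set 2 genotypes of synchronized mid-L4 larvae, raised at 20 C on OP50 bacteria, against each other. The first was isp-1(qm150), which carries a mutated Rieske subunit of complex III of the respiratory chain. The second was isp-1(qm150);ceh-23(ms23), which adds a mutation of ceh-23, a homeodomain gene, in its allele ms23, and is called the double mutant here. Both groups thus had the isp-1 mutation, and neither wild-type animals nor a ceh-23 single mutant were analysed here. Total RNA of whole worms was labelled with Cy5 or Cy3 in 3 biological replicates on 4 arrays, replicate 1 having an array in each dye orientation, and the 2 were averaged, so n = 3 throughout. Ratios are the double mutant over isp-1, so that values above 0 are higher in the double mutant. The labels name biological replicates without saying whether they were separate cultures grown on different days. The p-values thus rest on the spread between these 3 samples, moderated in limma by that of all genes. The prior gave 4.1 of the 6.1 degrees of freedom.

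Transthyretin-like proteins are a large nematode family of small, mostly secreted proteins with a fold related to that of vertebrate transthyretin, a carrier of thyroid hormone. Most members have no assigned function. TTR-52 is a secreted bridge between phosphatidylserine on the surface of dying cells and the engulfment receptor CED-1, TTR-11 binds phosphatidylserine on severed axons and acts with the integrin INA-1 in axon regeneration, and TTR-33 protects dopaminergic neurons against oxidative damage. The ttr-39 promoter is used to mark the D-type motor neurons. The comparison bears on which of these genes differ when ceh-23 is mutated in animals with impaired respiration. A difference does not show that a gene needs ceh-23.

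Across the 4 arrays, the spots well above background made up 62.4% to 77.5% for the double mutant and 62.2% to 78.4% for isp-1, no spot was saturated, and the arrays' gene ratios correlated at 0.55 to 0.81 across genes. For ceh-23, read by 1 probe, the log2 ratio was -0.09 (SD 0.10, n = 3) in a fit without the filter on dim probes, with a limma adjusted p of 0.459. The files do not place that probe relative to the ms23 lesion, so it does not check the genotypes. Replicate 1 was hybridised to one slide, and a further slide held replicates 2 and 3. The precision of every value is limited by the number of replicates.

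Of the 50 genes, 3 fell in the double mutant at a limma adjusted p of 0.05, which is 6% of them, beside 2.59% of all genes tested. These were ttr-42, ttr-50 and ttr-51. None rose in limma, beside 0.775% of all genes, while 8, or 16%, had a positive ratio with an unadjusted p of at most 0.05, beside 13.6% of all genes. On the lower side 13 of the 50, or 26%, had such a p, beside 22.3% of all genes. The median log2 ratio over all genes was -0.01. That over the 50 genes was 0.04, with an interquartile range of -0.31 to 0.22 and extremes of -1.71 and 0.54. The mean ratio was above 0 for 29 of the 50, or 58%, beside 48.3% of all genes. The replicate medians were 0.09, -0.07 and 0.02, beside -0.02, -0.05 and 0.02 over all genes. In replicates 1, 2 and 3, 29, 23 and 25 of the 50 were positive, beside 6522, 6149 and 7405 of the 13685 genes. Within replicate 1 the ttr median was 0.21 on the first array and -0.01 on the dye-flip array. Over all genes these were -0.01 and -0.07.

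**Figure D1:**
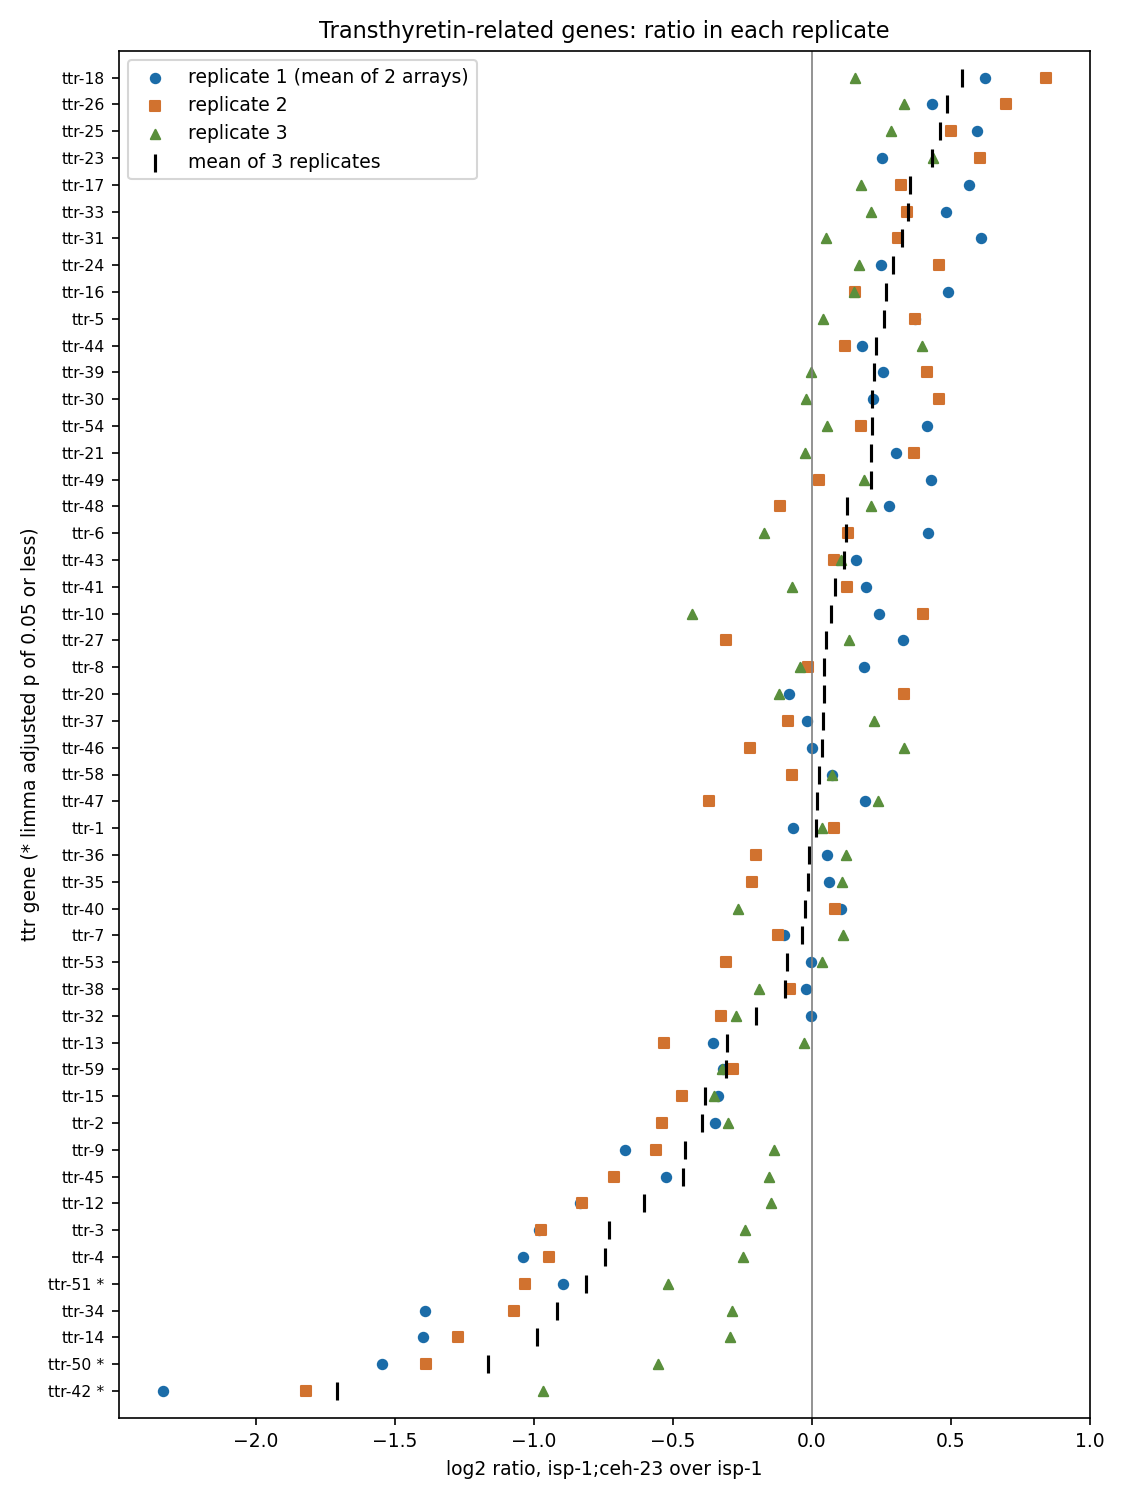
The log2 ratio of the double mutant over isp-1 is plotted on the horizontal axis for each of the 50 tested genes, with 1 point per replicate and a bar at the mean of 3. The lower end reaches -1.71 and the upper end 0.54, and in the 8 lowest genes the triangle of replicate 3 lies nearest to 0.

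The calls of ttr-42, ttr-50 and ttr-51 sit at the edge of the threshold. The adjusted p of each was 0.0494, a value shared by most called genes of these arrays. All 3 were lost with no background correction (adjusted p = 0.0643), without replicate 2 (0.166 to 0.168) and with median centring of the arrays in place of loess (0.458). With median centring no gene of the arrays passed in limma, and 2 ttr genes had a positive and 7 a negative ratio at an unadjusted p of at most 0.05. They were also lost when outlier spots were given weight in the loess curve, where 1 gene of the arrays passed as higher and 1 as lower in limma and no ttr gene passed. The choice between these loess curves was made after both counts were known. The ratios of ttr-42, ttr-50 and ttr-51 stayed negative under all 19 other settings tried. Aquantile, trend and robust moderation and dye as a covariate, which are among these, cannot change a ratio.

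The lowest ratio of the family belonged to ttr-42 (H01M10.3, chromosome X), a gene with no assigned function. Its normalized log2 intensity in isp-1 was 10.6 on the dye-flip array of replicate 1, 10.05 on the first array, 9.98 in replicate 2 and 9.2 in replicate 3. In the double mutant it was 7.75, 8.23, 8.16 and 8.23 on the same arrays. The genotypes did not overlap, and the isp-1 level was lowest in replicate 3. The double mutant was 3.27-fold lower, and the log2 ratio was -1.71 (SD 0.69, n = 3, 95% interval -2.31 to -1.11, limma adjusted p = 0.0494). Its 2 probes gave -1.75 and -1.67. Within the slide of replicates 2 and 3 alone the ratio was -1.39 (limma adjusted p = 0.0262), and on the slide of replicate 1 it was -2.33.

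The gene ttr-50 (F58B3.9, chromosome IV) was 2.24-fold lower, and its log2 ratio was -1.16 (SD 0.53, n = 3, 95% interval -1.65 to -0.68, limma adjusted p = 0.0494). Its log2 intensity was 9.43, 9.02, 9.63 and 8.84 in isp-1 and 7.48, 7.88, 8.24 and 8.28 in the double mutant, in the same order of arrays. Here too the genotypes did not overlap, and replicate 3 had the smallest gap. Only 1 probe read this gene. Without replicate 1 the ratio was -0.97 and no longer passed (limma adjusted p = 0.0743).

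The gene ttr-51 (JC8.8, chromosome IV) was 1.76-fold lower, and its log2 ratio was -0.81 (SD 0.27, n = 3, 95% interval -1.13 to -0.50, limma adjusted p = 0.0494). Its log2 intensity was 11.93, 11.92, 11.95 and 11.62 in isp-1 and 10.91, 11.16, 10.92 and 11.11 in the double mutant. The genotypes were separated on all 4 arrays, and its 4 probes gave ratios between -0.87 and -0.73. Without replicate 1 the ratio was -0.77 (limma adjusted p = 0.108), and with trend and robust moderation the adjusted p was 0.0519.

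**Figure D2:**
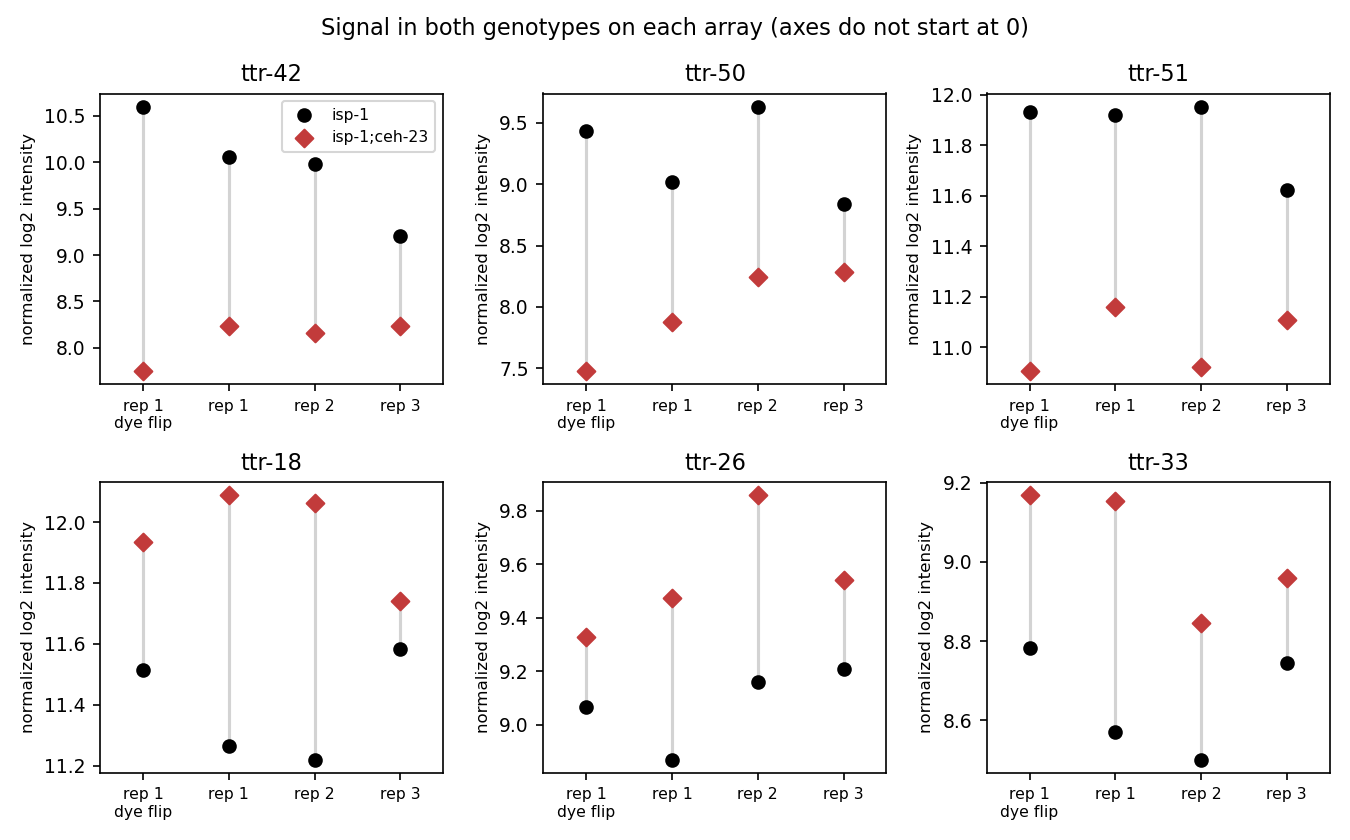
Normalized log2 intensity is plotted for both genotypes on each of the 4 arrays, for the 3 genes that fell and for ttr-18, ttr-26 and ttr-33, which did not pass. Circles are isp-1 and diamonds the double mutant. The diamonds of ttr-42, ttr-50 and ttr-51 lie below all circles of the same gene, while those of the other panels lie above the circle of the same array.

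A description that uses no variance estimate gave a longer list on the lower side. Of the 50 genes, 8 had a negative ratio on all 4 arrays and a mean of at least 1.5-fold, which is 16% beside 7.89% of all genes, and none met the same description on the higher side, beside 1.37% of all genes. Besides the 3 called genes these were ttr-14, ttr-34, ttr-4, ttr-3 and ttr-12. The count was 7 to 10 when 1 replicate was left out and 3 with median centring.

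None of the 5 further genes passed in limma. On the dye-flip array, the first array of replicate 1, replicate 2 and replicate 3, ttr-14 (T05A10.3, chromosome X) had ratios of -1.59, -1.21, -1.27 and -0.30 and a mean of -0.99 (SD 0.60, limma adjusted p = 0.0557). In the same order ttr-34 (F09A5.9, chromosome X) had -1.55, -1.24, -1.07 and -0.29, with a mean of -0.92 (SD 0.57, limma adjusted p = 0.0571). In both genes replicate 3 stood apart from the others and lay closest to 0. The pseudogene ttr-4 (F40F12.1, chromosome III) had -1.26, -0.82, -0.95 and -0.25, with a mean of -0.74 (SD 0.43, limma adjusted p = 0.0575), and its 4 probes lay between -0.79 and -0.71. Its neighbour ttr-3 (K03H1.3) had nearly the same values, -1.41, -0.55, -0.97 and -0.24, with a mean of -0.73 (SD 0.43, limma adjusted p = 0.0578). Whether each probe reads 1 member of the family alone was not tested, since the files hold no probe sequences. The last of these, ttr-12 (F46B3.4, chromosome V), had -1.32, -0.35, -0.83 and -0.15, with a mean of -0.60 (SD 0.39, limma adjusted p = 0.07).

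In the 8 genes the ratios lay between -2.33 and -0.83 in replicate 1, between -1.82 and -0.83 in replicate 2 and between -0.97 and -0.15 in replicate 3. In 8 of the 8, replicate 3 was nearest to 0, as it was in 98.2% of the 1080 genes of the arrays that met the same description, so this is no feature of the ttr genes. Replicate 3 had the double mutant in Cy3 only, so in it dye and replicate cannot be told apart. It was nearest to 0 also in 10 of the 13 ttr genes with a positive ratio on all 4 arrays, beside 64.5% of all such genes. Leaving it out moved ttr-42 to -2.08, ttr-14 to -1.34 and ttr-34 to -1.23, and 14 ttr genes then passed on the lower side and 13 on the higher, beside 28.6% and 14.7% of all genes. These counts rest on 2 replicates each. Another 4 genes had negative ratios on all 4 arrays at a smaller size, namely ttr-45 at -0.46, ttr-9 at -0.46, ttr-15 at -0.39 and ttr-13 at -0.30. Their adjusted p-values in limma were 0.0768, 0.0787, 0.0647 and 0.142. In the double mutant, ttr-13 had a signal well above background on only 2 arrays.

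On the higher side 13 of the 50 genes had a positive ratio on all 4 arrays, which is 26% beside 20.9% of all genes, and on the lower side 12 had a negative one, which is 24% beside 25.3%. The 6 with the highest means were ttr-18, ttr-26, ttr-25, ttr-23, ttr-17 and ttr-33. In ttr-18 (B0334.1, chromosome II) the arrays gave 0.42, 0.82, 0.84 and 0.16, with a mean of 0.54 (SD 0.35, n = 3, limma adjusted p = 0.0737). In ttr-26 (Y51A2D.11, chromosome V) they gave 0.26, 0.60, 0.70 and 0.33, with a mean of 0.49 (SD 0.19, limma adjusted p = 0.0578). These sizes are 1.45-fold and 1.40-fold, below the cut of 1.5-fold that defined the 8 lower genes. The neighbour ttr-25 (Y51A2D.10) had 0.46 (SD 0.16, limma adjusted p = 0.0582), ttr-23 (T21C9.8, chromosome V) had 0.43 (SD 0.18, limma adjusted p = 0.0663), and ttr-17 (Y5F2A.2, chromosome IV) had 0.35 (SD 0.20, limma adjusted p = 0.0925).

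The dopaminergic protection gene ttr-33 (C37C3.13, chromosome V) had ratios of 0.39, 0.58, 0.34 and 0.21 and a mean of 0.35 (SD 0.14, n = 3, 95% interval 0.09 to 0.60, limma adjusted p = 0.0832). Its 3 probes gave 0.29 to 0.42. It was higher in the double mutant in 3 of 3 replicates but did not pass. It passed under 5 of the 19 other settings, among them the scanner's own log ratio, where the mean was 0.54 (limma adjusted p = 0.0486). The D-type motor neuron gene ttr-39 (C04G2.1, chromosome IV) had 0.10, 0.41, 0.42 and -0.00438, with a mean of 0.22 (SD 0.21, limma adjusted p = 0.22), so replicate 3 lay near 0. The higher members ttr-31, ttr-24, ttr-16, ttr-5, ttr-44, ttr-54 and ttr-49 ranged from 0.32 down to 0.21, with a positive ratio on all 4 arrays.

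The number of higher calls differed between settings. With trend and robust moderation 7 genes passed on the higher side and 4 on the lower, beside 10.7% and 3.15% of all genes. With the scanner's log ratios 3 and 4 passed, beside 5.54% and 7.13%. In each of these settings the 6 highest genes kept positive ratios, which trend and robust moderation cannot change.

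**Figure D3:**
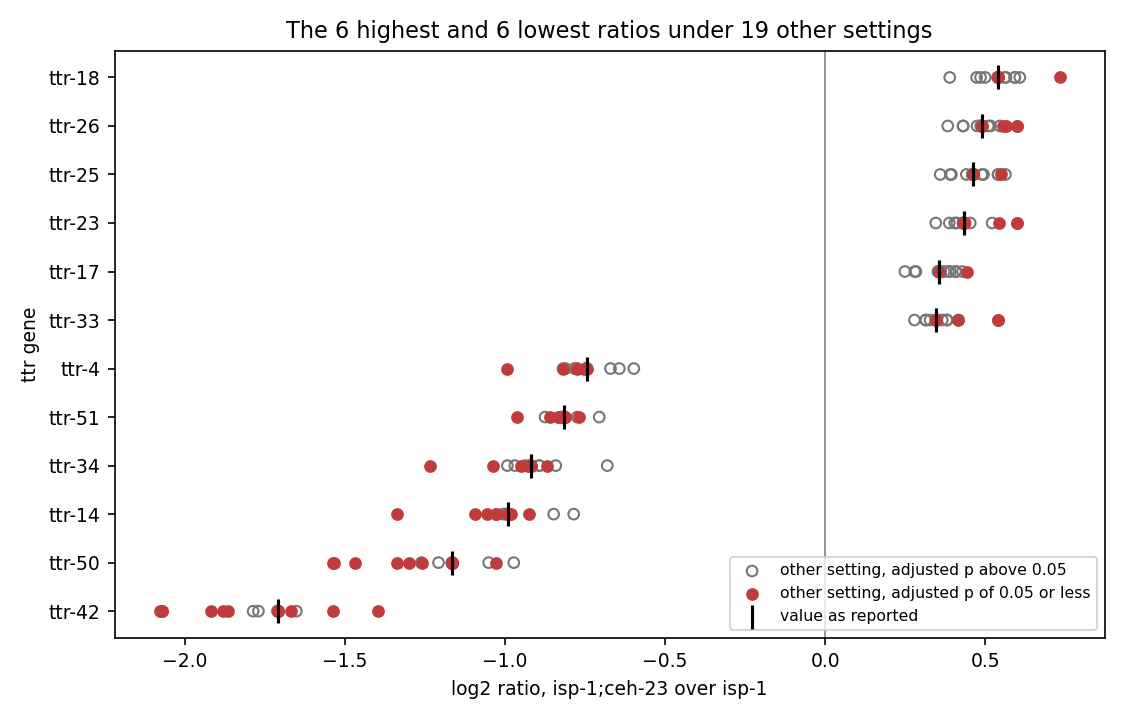
The log2 ratio is plotted for the 6 highest and the 6 lowest genes under each of the 19 other settings, filled where the limma adjusted p was at most 0.05, with a bar at the value as reported. No point crosses 0, and each gene has both filled and open points. Aquantile, trend and robust moderation and dye as a covariate leave the ratio as reported, so their points could not cross.

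The remaining 25 tested genes had ratios whose sign differed between arrays, with means from -0.40 to 0.22. Besides those described here and with their neighbours, they were ttr-21, ttr-48, ttr-6, ttr-43, ttr-41, ttr-20, ttr-37, ttr-46, ttr-47, ttr-7 and ttr-38, which ranged from 0.22 for ttr-21 to -0.10 for ttr-38. Near 0 lay ttr-1 (K03H1.6, chromosome III), with replicate values of -0.07, 0.08 and 0.04 and a 95% interval of -0.22 to 0.25. The pair of arrays of replicate 1 disagreed in sign for several of them. For ttr-2 the dye-flip array gave -0.77 and the first array 0.08, with a mean over replicates of -0.40 (SD 0.13, limma adjusted p = 0.0675). For ttr-59 they gave -0.70 and 0.06, with replicate values of -0.32, -0.28 and -0.32 (mean -0.31, SD 0.02, limma adjusted p = 0.0852). The small SD of ttr-59 thus holds only for the mean of arrays of opposite dye orientation. The gene ttr-10 varied most in this group, where the dye-flip array gave 0.79, the first array -0.31, and replicates 2 and 3 gave 0.40 and -0.43 (SD 0.44).

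The 9 genes that did not pass the filter included both members with a known role in binding phosphatidylserine. For ttr-52 (F11F1.7, chromosome III, 5 probes) the signal stood well above background on 2 arrays in the double mutant and on 1 in isp-1. In a fit of all probes without the filter its log2 ratio was 0.06 (SD 0.03, n = 3, limma adjusted p = 0.61). For ttr-11 (F46B3.3, chromosome V, 3 probes) it did so on 2 arrays in isp-1 and on as many in the double mutant, with -0.06 (SD 0.13, limma adjusted p = 0.687) in that fit. At this signal a difference in either gene was not measurable with confidence. The others were ttr-55, ttr-56, ttr-28, ttr-29, ttr-57, ttr-22 and ttr-19, and ttr-19 was not well above background on any array in either genotype.

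Many ttr genes lie next to each other. Of the 59 genes, 30 form 12 runs in which members are adjacent or separated by at most 3 other genes of the RefSeq annotation, and in 9 of these runs 2 or more members were tested. Members of a run had ratios of one sign in 4 runs and of both signs in 5. The run of ttr-24, ttr-25 and ttr-26 on chromosome V had 0.29, 0.46 and 0.49, and that of ttr-16 and ttr-17 on chromosome IV had 0.27 and 0.35. On the lower side, the neighbours ttr-45 and ttr-51 on chromosome IV had -0.46 and -0.81, and 4 members on chromosome III, ttr-4, ttr-3, ttr-2 and ttr-1, ran from -0.74 and -0.73 through -0.40 to 0.02. The pair ttr-35 and ttr-36 on chromosome X stood at -0.01 each, with replicate values of 0.06, -0.21 and 0.11 for ttr-35 and 0.05, -0.20 and 0.12 for ttr-36.

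Members of both signs also stood in 4 further runs. They were ttr-59 at -0.31 and ttr-30 at 0.22 on chromosome X, ttr-53 at -0.09 and ttr-54 at 0.22 on IV, ttr-40 at -0.02 and ttr-49 at 0.21 on V, and ttr-32 at -0.20 and ttr-8 at 0.04 on III. In the run of ttr-27, ttr-28 and ttr-29 only ttr-27 was tested, at 0.05 (SD 0.33), in that of ttr-55, ttr-56 and ttr-58 only ttr-58, at 0.02, and in that of ttr-11, ttr-57 and ttr-12 only ttr-12. Neighbours share a chromosome, and related genes may share signal, so members of a run are not independent measurements.

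**Figure D4:**
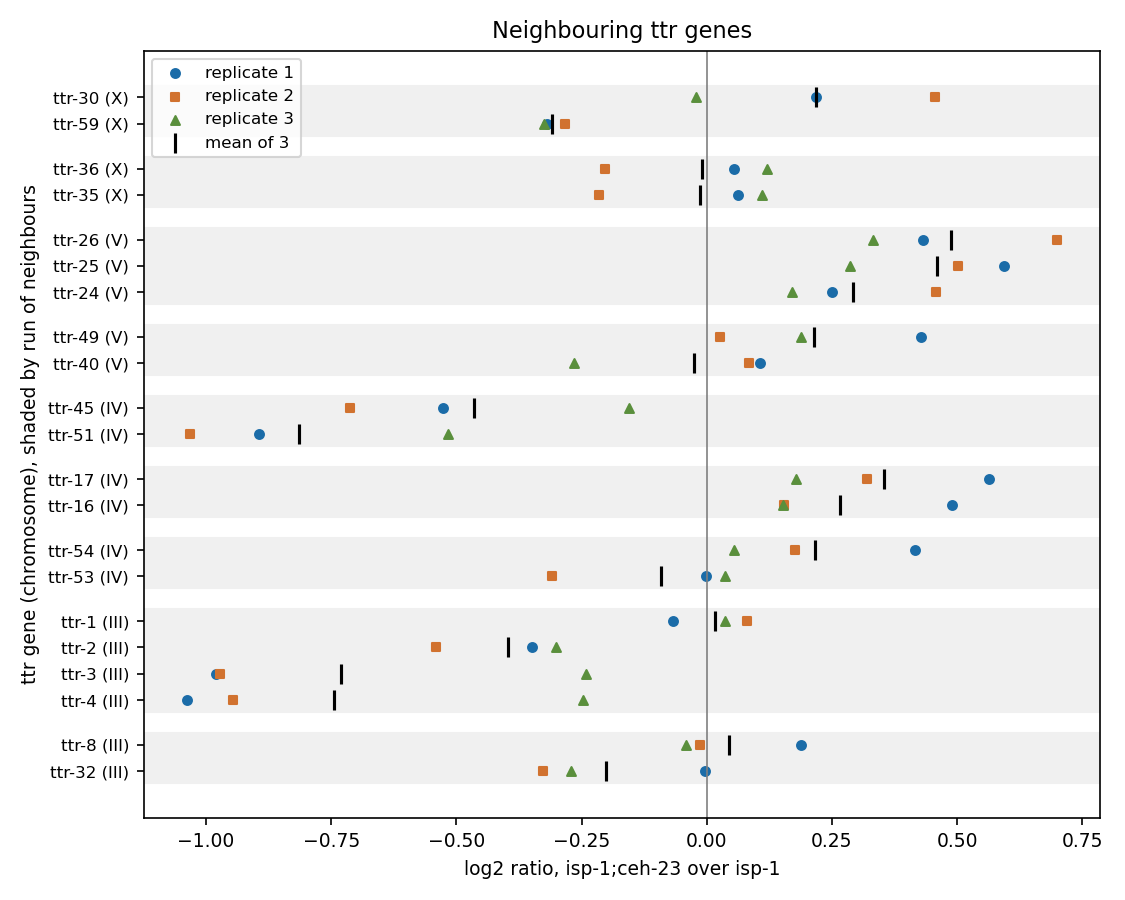
The log2 ratio of each tested gene is plotted for the 9 runs with 2 or more tested members, with 1 point per replicate and a bar at the mean of 3. Shading joins the members of a run. The run on chromosome III spans from -0.74 to 0.02, while the pair ttr-35 and ttr-36 coincides at -0.01.

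By chromosome, the tested ttr genes were spread unevenly, with 16 on V, 12 on X, 10 on IV, 9 on III, 2 on II and 1 on I. On chromosome V, 13 of 16 had a positive mean ratio, which is 81.2%, beside 54.1% of all genes tested there. On chromosome X, 5 of 12 did, which is 41.7%, beside 73.7% of all genes tested there, and ttr-42, ttr-14 and ttr-34 lie on it. Its negative members include the neighbours ttr-35 and ttr-36 at -0.01, each of which changed sign in 6 of the 19 other settings. On IV, where ttr-50 and ttr-51 lie, it was 5 of 10, or 50% beside 42.7%. On III it was 3 of 9, or 33.3% beside 42%. These shares are descriptions of few genes, some of them neighbours.

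Engulfment of dying cells, the process in which TTR-52 acts, was followed by a list. The list covers engulfment more widely, with genes such as ced-2, ced-5 and ced-12, and is not limited to partners of TTR-52. Of 21 genes listed, which include the receptor ced-1, its adaptor ced-6, the transporter ced-7 and the lipid-binding partner nrf-5, 20 were tested. None of the 20 passed in limma over all genes, beside 0.775% higher and 2.59% lower of all genes, a share at which a list of this size holds few calls or none. At an unadjusted p of at most 0.05, 3 had a positive ratio and 4 a negative one, which is 15% and 20%, near the 13.6% and 22.3% of all genes. In all, 10 had a positive and 10 a negative ratio. The adaptor gene ced-2 came nearest, with replicate values of -0.71, -0.79 and -0.35 and a mean of -0.62 (SD 0.23, n = 3, limma adjusted p = 0.0502). The dynamin gene dyn-1 had 0.41, 0.33 and 0.60 and a mean of 0.45 (SD 0.14, limma adjusted p = 0.0582), although the dye-flip array gave -0.13 and the first array of replicate 1 gave 0.95. The integrin gene ina-1 had 0.30 (SD 0.11, limma adjusted p = 0.0983), ced-1 had 0.04 (SD 0.13) and nrf-5 had -0.16 (SD 0.14).

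Some markers of germ cells and of the molting cycle changed between the same samples. In bulk RNA of whole worms, fewer cells of a type and less RNA per cell cannot be told apart, and a difference in stage could not be separated from one in genotype. All 20 oocyte and germline markers were tested, and 12 fell in limma (60%, beside 2.59% of all genes), with a list median of -1.08. Those called were puf-5, puf-11, glh-2, spn-4, cbd-1, cpg-1, cpg-2, rme-2, oma-1, egg-1, egg-2 and egg-3. At an unadjusted p of at most 0.05 all 20 markers had a negative ratio, beside 22.3% of all genes. Their mean log2 intensity lay between 11.58 and 12.1 over the arrays in isp-1 and between 10.27 and 11.06 in the double mutant. Of 17 sperm markers 15 were tested and 3 fell in limma (20%, beside 2.59% of all genes), namely msd-3, msd-2 and gsp-3. At an unadjusted p of at most 0.05, 12 of the 15 (80%) had a negative ratio, beside 22.3% of all genes. The sperm list had a median of -0.74 and a mean log2 intensity of 10.50 to 10.73 in isp-1 and 9.74 to 10.24 in the double mutant. The limma adjusted p of each called marker of both lists was 0.0494. No tested marker of either list was below background on all arrays. The replicate medians of the oocyte list were -1.38, -1.36 and -0.52, those of the sperm list -0.95, -0.87 and -0.28, and those of the 8 lower ttr genes -1.22, -1.05 and -0.29. In all 3 groups replicate 3 was nearest to 0, as in most lower genes of the arrays. The 8 ttr genes were picked by these ratios, so their negative medians are fixed by that choice. The part of germ cell content in the ttr values was not tested.

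On the higher side, 15 of 16 molting-cycle genes were tested and 3 rose in limma (20%, beside 0.775% of all genes). These were the nuclear receptor gene nhr-25, lrp-1 and qua-1, each at a limma adjusted p of 0.0494. At an unadjusted p of at most 0.05, 10 of the 15 (66.7%) had a positive ratio, beside 13.6% of all genes. The molting list had a median of 0.50 and a mean log2 intensity of 10.2 to 10.36 in isp-1 and 10.61 to 10.82 in the double mutant. The hypodermis list, with 10 of 13 tested, had a median of 0.47, and its intensity was 11.83 to 12.49 in isp-1 and 12.39 to 12.81 in the double mutant. The pharynx list, with 11 of 14 tested, had a median of 0.57, which was 0.95 in replicate 1 and 0.36 and 0.33 in the others. None of the hypodermis or pharynx genes passed in limma. At an unadjusted p of at most 0.05, 6 hypodermis genes (60%) and 7 pharynx genes (63.6%) had a positive ratio, beside 13.6% of all genes, and 1 hypodermis gene had a negative one. Neuron markers had a median of 0.33, body wall muscle 0.21, glia 0.19 and intestine 0.10, with no gene past the threshold in limma. At an unadjusted p of at most 0.05, 8 of 14 neuron genes (57.1%), 3 of 12 muscle genes (25%), 2 of 6 glia genes (33.3%) and 1 of 9 intestine genes (11.1%) had a positive ratio, beside the same 13.6%. The 13 ttr genes higher on all 4 arrays had replicate medians of 0.43, 0.34 and 0.18, beside 0.43, 0.57 and 0.22 for the molting cycle and 0.50, 0.67 and 0.31 for the hypodermis. These 13 genes were picked by the sign of their ratios, so their positive medians are fixed by that choice. The part of stage and of these tissues in the ttr values was not tested.

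**Figure D5:**
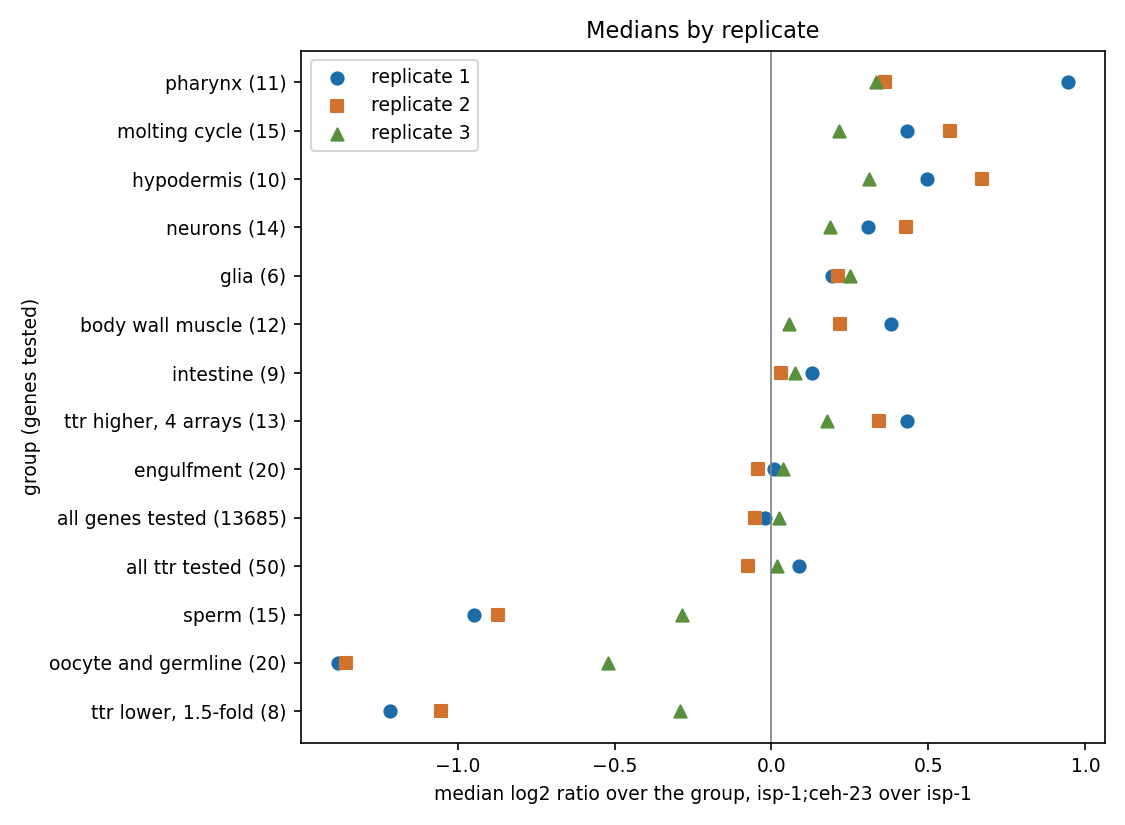
The median log2 ratio in each replicate is plotted for groups of ttr genes and for the marker lists, with the number of genes tested in parentheses. The lower ttr genes, which were picked by their ratios, lie between -1.22 and -0.29, and the 50 ttr genes together lie within 0.09 of 0.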

How the data were processed

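Per the file headers, the authors quantified the arrays with Agilent Feature Extraction 10.5.1.1 on a design that names build ce4. The deposited values used are the median spot and background intensity of each channel, flags of 0 or 1 (other than intensities), and, as alternatives, the authors' log10 ratio of Cy5 over Cy3 and the deposited series table, which differed from it by less than 0.005 on every array.

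Normexp with an offset of 50 and loess were run in limma 3.58.1 under R 4.3.3. Control and outlier spots had weight 0, and outlier spots, 8 to 496 an array, were left out. Ratios were turned by the dye in the labels. Sequence names gave a gene for 35017 of 43803 spots, accessions for 356, and 8430 stayed unnamed. A gene was the mean of its kept probes, which was 1 probe for 40 ttr genes and several for 10. With replicate 1 averaged over its arrays, lmFit and eBayes tested the 3 values against 0, two-sided, with Benjamini-Hochberg adjustment over 13685 genes. Intervals are at 95% with 6.1 degrees of freedom. Levels of each genotype were taken after Aquantile. The fit was tested on simulated data.

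Members, lists and tests were chosen with earlier results of these data known. Named by rule are every ttr gene past the threshold, the 6 highest and 6 lowest ratios, ttr-52, ttr-33 and ttr-11, and members of runs, and of the lists the genes past the threshold. The other ttr and engulfment genes were named after their values were seen, and marker lists without a call are given by counts. The plan did not say whether outlier spots shape the loess curve. They were given weight 0 after the counts under both choices had been seen, in keeping with the earlier processing of these data.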

Additional observations from a re-analysis of the deposited data

How the results depend on the processing

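Ratios of the 6 highest and 6 lowest ttr genes kept their sign under all 19 other settings, and the family median stayed between -0.01 and 0.09. Aquantile, trend and robust moderation and dye as a covariate cannot change a ratio, so the sign was fixed there beforehand. The series table repeats the scanner's log ratio and is no separate check. The counts of calls in limma did not hold, since the adjusted p-values of the called ttr genes lay at 0.0494. Against 0 higher and 3 lower, they were 0 and 0 with median centring, with no background correction, with no filter, with outliers left in, and with outliers given weight in the loess curve, a setting chosen after seeing the data. With an offset of 0 they were 2 and 7, beside 3.07% and 7.83% of all genes. With the scanner's log ratios they were 3 and 4, beside 5.54% and 7.13%. The series, also added after seeing the data, gave the same ttr counts, beside 5.55% and 7.14%. Trend and robust moderation gave 7 and 4, beside 10.7% and 3.15%. Dye as a covariate gave 6 and 14, beside 10.1% and 20.2%. Slide as a block gave 0 and 8, beside 1.28% and 7.96%. The brightest probe gave 0 and 5, beside 1.68% and 5.5%. Replicate 1 from its first array also gave 0 and 5, beside 1.23% and 4.44%. With 1 replicate left out the ttr counts ran from 0 to 13 higher and from 0 to 14 lower. Both were highest without replicate 3, where 14.7% of all genes passed as higher and 28.6% as lower. The genes with 1 sign on all 4 arrays and at least 1.5-fold, 0 higher and 8 lower, were 3 higher with the scanner's log ratio and with the series table, 1 higher with replicate 1 from its first array, and 3 lower with median centring; with 1 replicate left out they were 0 to 1 higher and 7 to 10 lower. The ratios themselves were the same as reported with trend and robust moderation and dye as a covariate, so that there only the variance estimate or the test differed. With Aquantile the ratios and the counts of calls were all as reported, so this setting changed nothing in the test. Elsewhere the cause was not tested. Over all genes, the counts went from 106 higher and 355 lower to 1458 and 431 with trend and robust moderation and to 758 and 976 with the scanner's log ratio, which also shifts the split between the directions.

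Of the engulfment genes, 0 higher and 0 lower in the main setting, 1 passed higher with the scanner's log ratio and the series table, 2 higher with trend and robust moderation, and 2 higher and 2 lower with dye as a covariate. There was 1 lower with an offset of 0, the strict filter, the brightest probe, slide as a block, and replicate 1 from either array, and leaving out 1 replicate gave 0 to 1 higher and 0 to 4 lower. On the lower side 4.46% of all genes passed with the strict filter and 4.52% with replicate 1 from its dye-flip array. For most other settings the shares of all genes are given above. The genes of the engulfment and marker lists that were followed under these settings kept their sign, with the same limit for settings that cannot change a ratio. The calls of the oocyte, sperm and molting markers did not hold throughout. Their adjusted p-values in limma also lay at 0.0494, and each call was lost in 6 to 9 of the 19 other settings.

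The following genes near 0 changed sign, and the cause was not tested. Without background correction ttr-1 had -0.0108 and ttr-40 0.0113. With an offset of 0 ttr-35 had 0.00665 and ttr-36 0.0123. With the log ratio of the scanner ttr-35, ttr-36 and ttr-40 had 0.0469, 0.0852 and 0.0549, and with that of the series 0.0469, 0.0851 and 0.055. With median centring ttr-1, ttr-58 and ttr-8 had -0.00955, -0.0128 and -0.0359. Without the filter ttr-58 had -0.00485. With slide as a block ttr-1, ttr-35, ttr-36 and ttr-40 had -0.0042, 0.00519, 0.00647 and 0.00829. With replicate 1 from its first array ttr-35, ttr-36, ttr-40, ttr-53 and ttr-58 had 0.0712, 0.00665, 0.0357, 0.0233 and -0.126. With 1 replicate left out in turn, ttr-1 ran from -0.0148 to 0.0587, ttr-27 from -0.0869 to 0.231, ttr-35 from -0.076 to 0.0863, ttr-36 from -0.0745 to 0.0874, ttr-40 from -0.0898 to 0.0955, ttr-53 from -0.155 to 0.0175 and ttr-8 from -0.0278 to 0.0872.

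Each ratio sets both genotypes of a replicate against each other on an array, so the test reported is itself paired, and no separate fit with a replicate block was made.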
